A study of Mus musculus with 6 samples.

Results

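The annexin genes are described here across 6 RNA-seq libraries of 4T1-Luc2-RFP cells, a mouse mammary carcinoma line of BALB/c origin with luciferase and red fluorescent protein reporters. The 9 genes Anxa1, Anxa2, Anxa3, Anxa4, Anxa5, Anxa6, Anxa7, Anxa8 and Anxa11 were taken by symbol from the 13912 genes of the deposited table, and all 9 were present. The tumour group holds 3 libraries of cells that fluorescence-activated sorting took out of MIND tumours of mammary glands. MIND is a name in use for mammary intraductal injection. The titles of all 3 tumour libraries carry the word Right. The cultured group holds 3 libraries of the same reporter line, grown in culture and not injected. Whether the line was 1 clone is not given in the sources used here, nor are the gates of the sort. The labels give BALB/c as the strain for both groups and no time, age or number of animals. Separate mice or cultures behind the libraries of 1 group are not stated, so each p-value rests on library-to-library spread that could be technical.

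Annexins are proteins that bind acidic phospholipids of membranes when calcium rises, through a conserved core of repeats, while their N-terminal tails differ and decide which partners they take. They are known for sealing plasma membrane wounds, for moving vesicles and, outside the cell, for covering phosphatidylserine, placing plasmin formation at the surface and damping inflammation. In mammary and other carcinomas annexins A1 and A2 are among the abundant members.

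By limma with Benjamini-Hochberg adjustment at 0.05 over all genes, Anxa4, Anxa5, Anxa6 and Anxa8 were higher in the tumour libraries and Anxa3 was lower. Anxa1, Anxa2, Anxa7 and Anxa11 did not pass. Thus 5 of 9 annexins changed, where 48.2% of all 13912 genes did, and 4 of 9 were higher, where 29.5% of all genes were. The share of annexins lower was 1 of 9, against 18.8% of all genes. The libraries of the groups did not overlap for the same 5 annexins, and did not overlap for 59.8% of all genes. A change of at least 2-fold that also passed the test was found for Anxa6 and Anxa8 among the 9, and for 32.5% of all genes. The median log2 change, tumour mean minus cultured mean, was 0.64 over the 9 annexins and 0.08 over all genes.

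The scaling of the libraries bears on these counts. As deposited, 61.1% of all calls were higher in the tumour libraries. Centring the libraries on their medians gave 48.1%. Quantile normalization gave 35.2%, and scaling to the median of 12 epithelial markers gave 28.6%. It was 86.5% when libraries were shifted so that the median deviation of those markers was 0, an alternative added after the data were seen. The median change of all genes was -0.14, -0.32, -0.68 and 0.52 in these 4 settings. Relative to the deposited scale, the epithelial median moved the 9 annexins by -0.76, and the epithelial deviations moved them by 0.44. Anxa6 was called higher in each of the 16 other settings. Its change was lowest when scaled to the epithelial median, at 0.45 (limma adjusted p = 0.0415). Anxa3 was called lower in each except the epithelial deviations, where its change was -0.33 (adjusted p = 0.269). The calls of Anxa4, Anxa5 and Anxa8 were lost when libraries were scaled to the epithelial median (adjusted p = 0.939, 0.915 and 0.0622).

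Markers of other cell types were high in the tumour libraries. All 16 macrophage and monocyte markers were higher there, with summed levels of 6840 to 9970 CPM (counts per unit of sequencing depth, the linear form of the deposited values) in tumour libraries and 14.2 to 26.1 CPM in cultured libraries. All 12 fibroblast markers were higher, at 8152 to 10366 CPM in tumour and 154 to 229 CPM in cultured libraries. All 11 neutrophil markers tested of 12 listed were higher, at 2885 to 8584 CPM in tumour and 99.99 to 102 CPM in cultured libraries. Retnlg and Mmp8 had 0 reads in cultured libraries. The table's minimum is 61 reads over all 6 libraries. Among these markers, only Csf1r, Cd68, Mrc1, Lcn2, Mmp9, Il1b, Col1a1, Pdgfra, Postn and Sparc had that many cultured reads. The others are in the table only through their tumour reads, so nothing is read from their direction. Over all genes, 29.5% were higher and 18.8% lower. Of 12 epithelial markers tested of 13 listed, 1 was higher and 5 were lower, at 2871 to 3363 CPM in tumour and 2885 to 3763 CPM in cultured libraries. Their median change was -0.38, while the median of their levels was higher in each tumour library, so the 2 ways of scaling to them differ in sign. Epcam, an epithelial surface antigen, stood at 6.82 log2 CPM in tumour and 6.63 in cultured libraries and did not pass. The 5 lower were Cdh1, Krt7, Cldn3, Esrp1 and Grhl2, with changes from -0.91 to -1.16. The 1 higher was Krt14, with a change of 2.13. Whether these reads came from other cells was not tested, nor was the part of such cells in the annexin levels, and more cells of a type cannot be told apart from more RNA per cell. Cultured library 3 also stood apart, as described with the genes it touches.

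**Figure D1:**
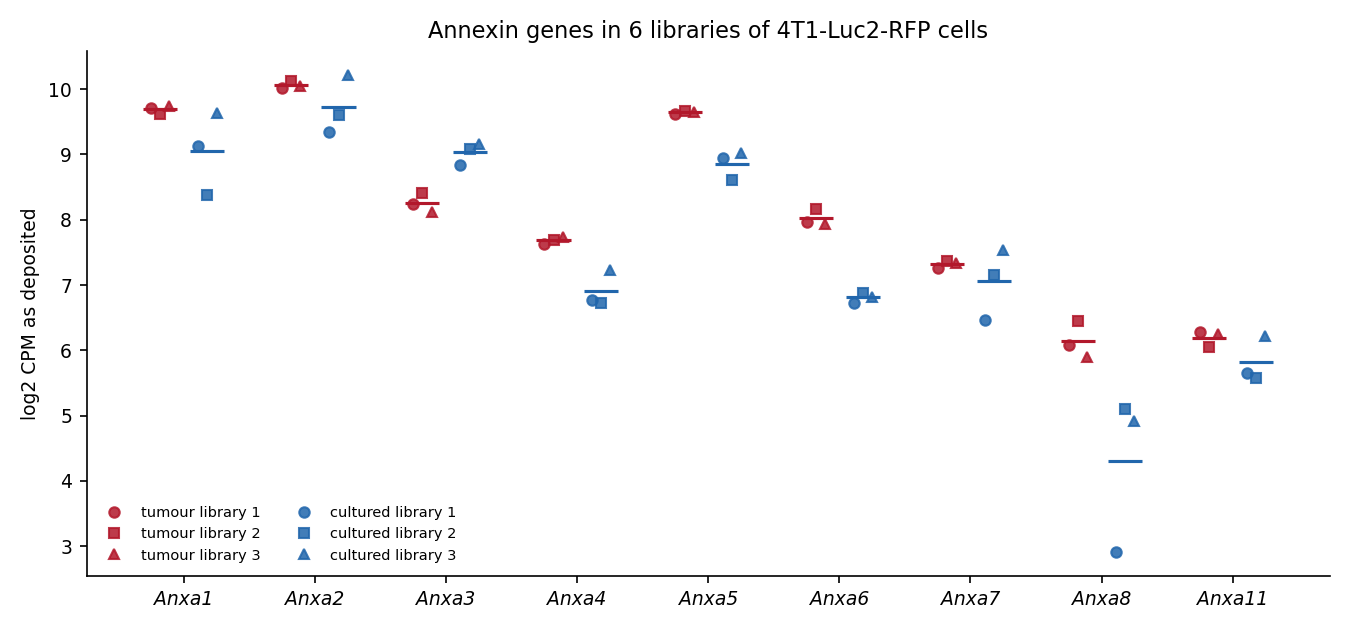
Deposited log2 CPM of the 9 annexins in each library, tumour libraries in red on the left of each pair and cultured libraries in blue on the right, with the horizontal line at the group mean. The tumour points of Anxa5 span 0.05 and the cultured points of Anxa8 span 2.19, and the groups are separate for Anxa3, Anxa4, Anxa5, Anxa6 and Anxa8.

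Anxa6, on chromosome 11 from 54979108 to 55033445 (GRCm38, minus strand), encodes an annexin whose core is repeated within the protein and which acts in cholesterol traffic and as a scaffold for Ras and protein kinase C regulators. Its level was 7.96, 8.17 and 7.93 log2 CPM in tumour libraries 1, 2 and 3, and 6.73, 6.87 and 6.82 in cultured libraries 1, 2 and 3. All tumour libraries lay above all cultured ones, and the cultured spread was the smallest of the 9 annexins. The log2 change was 1.21 (SE 0.14, limma adjusted p = 0.000233), or 2.32-fold. In CPM this was 261 ± 24.1 in tumour and 112 ± 5.53 in cultured libraries (SD, n = 3 each). Cultured library 3 differed from the mean of the other cultured libraries by 0.02 only.

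Anxa5, on chromosome 3 from 36448923 to 36475894 (minus strand), encodes the annexin used as a reagent for phosphatidylserine on dying cells. It stood at 9.62, 9.67 and 9.65 log2 CPM in tumour libraries, and at 8.94, 8.61 and 9.02 in cultured libraries. The tumour libraries were nearly level and all above the cultured ones. The change was 0.79 (SE 0.17, limma adjusted p = 0.00704), with 801 ± 14.1 CPM in tumour and 468 ± 67.6 CPM in cultured libraries (SD, n = 3 each).

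Anxa4, on chromosome 6 from 86736840 to 86793584 (minus strand), encodes an annexin of secretory epithelia that lowers membrane permeability. It stood at 7.63, 7.69 and 7.74 log2 CPM in tumour libraries, and at 6.77, 6.73 and 7.23 in cultured libraries. Cultured library 3 was the nearest to the tumour level and still below it. The change was 0.78 (SE 0.17, limma adjusted p = 0.00728), with 206 ± 7.76 CPM in tumour and 122 ± 24.9 CPM in cultured libraries (SD, n = 3 each).

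Anxa8, on chromosome 14 from 34085981 to 34100571 (plus strand), encodes an annexin first described as a vascular anticoagulant and found in stratified and mammary epithelium. It stood at 6.09, 6.45 and 5.90 log2 CPM in tumour libraries, and at 2.92, 5.11 and 4.92 in cultured libraries. Cultured library 1 was far below the other cultured libraries, with 321 reads against 1559 and 1052. The change was 1.84 (SE 0.54, limma adjusted p = 0.0249), the largest among the 9, with a 95% interval from 0.58 to 3.09. Without tumour library 1, 2 or 3 the change was 1.87, 1.68 or 1.96, and its adjusted p was 0.0605, 0.086 or 0.0532. Without cultured library 1 the change was 1.14 (adjusted p = 0.0059) and the call stayed.

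Anxa3, on chromosome 5 from 96793339 to 96845966 (plus strand), was the member that fell. It encodes an annexin that is abundant on neutrophil granules and is also made by carcinoma cells. It stood at 8.24, 8.41 and 8.12 log2 CPM in tumour libraries, and at 8.84, 9.09 and 9.16 in cultured libraries. All tumour libraries lay below all cultured ones. The change was -0.78 (SE 0.16, limma adjusted p = 0.00605), with 307 ± 31.6 CPM in tumour and 525 ± 59.3 CPM in cultured libraries (SD, n = 3 each). Among the tumour libraries it was highest in library 2, where the median neutrophil marker differed by -2.31 on the log2 scale from its mean in tumour libraries 1 and 3. The median macrophage, fibroblast and epithelial markers differed there by -0.57, -0.24 and 0.11. The part of neutrophils or other cells in the Anxa3 level was not tested.

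**Figure D2:**
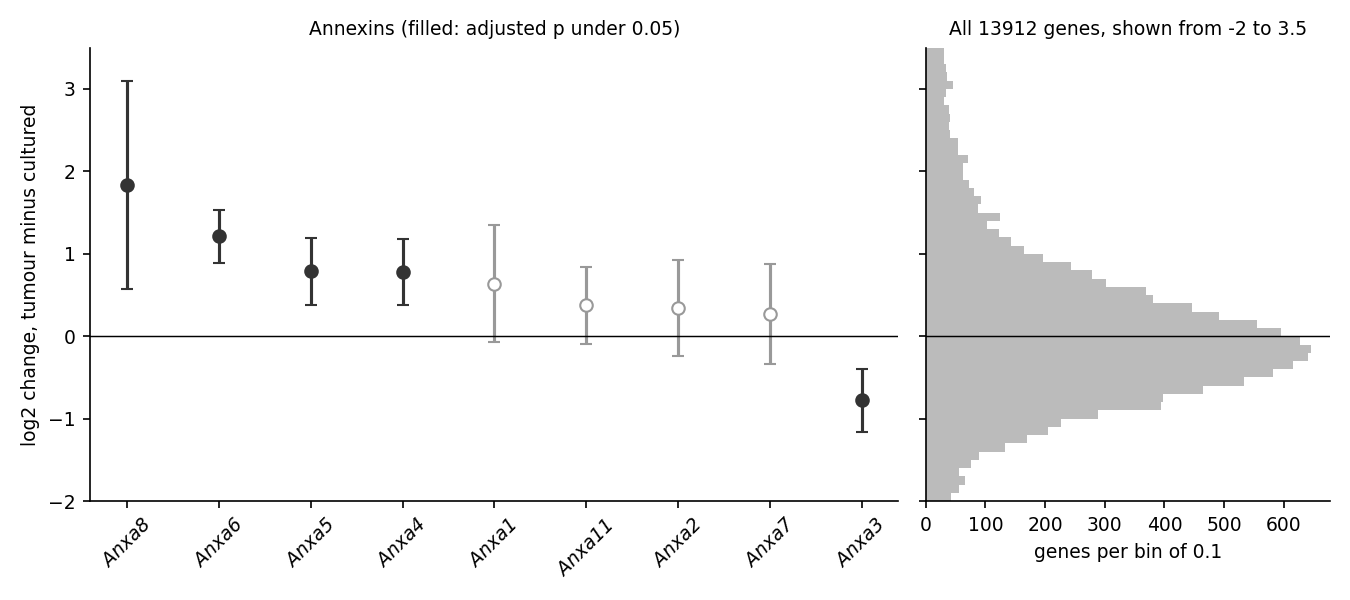
Left, log2 change of each annexin, tumour mean minus cultured mean, with its 95% limma interval (filled points passed the adjusted threshold). Right, the distribution of the same change over all genes, cut to the range of the left axis. Anxa6 and Anxa8 lie above 1 and Anxa3 below 0, while the intervals of Anxa1, Anxa2, Anxa7 and Anxa11 include 0.

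The 4 members that did not pass were those for which cultured library 3 reached the tumour level. Anxa1, on chromosome 19 from 20373428 to 20390944 (minus strand), encodes an anti-inflammatory annexin that glucocorticoids induce and that signals through formyl peptide receptors. It stood at 9.71, 9.62 and 9.74 log2 CPM in tumour libraries, and at 9.13, 8.38 and 9.64 in cultured libraries. The cultured libraries spread over 1.26 log2 units and library 3 lay within the tumour range, while the tumour libraries spread over 0.12. The change was 0.64 (SE 0.31, limma adjusted p = 0.121), with a 95% interval from -0.07 to 1.35.

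Anxa2, on chromosome 9 from 69453620 to 69491795 (plus strand), encodes the annexin that pairs with S100A10 and binds plasminogen and its activator at the cell surface. It stood at 10.02, 10.13 and 10.06 log2 CPM in tumour libraries, and at 9.35, 9.60 and 10.22 in cultured libraries. Cultured library 3 was the highest of all 6. The change was 0.35 (SE 0.25, limma adjusted p = 0.287), with a 95% interval from -0.23 to 0.93.

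Anxa7 and Anxa11 encode annexins with long N-terminal tails that bind calcium sensors, and annexin A11 links RNA granules to lysosomes. Anxa7, on chromosome 14 from 20455260 to 20480133 (minus strand), stood at 7.25, 7.37 and 7.33 log2 CPM in tumour libraries, and at 6.47, 7.16 and 7.54 in cultured libraries. Its change was 0.26 (SE 0.26, limma adjusted p = 0.436), the smallest of the 9, and the tumour libraries lay between cultured libraries 2 and 3. Anxa11, on chromosome 14 from 25842156 to 25886804 (plus strand), stood at 6.28, 6.05 and 6.25 log2 CPM in tumour libraries, and at 5.65, 5.58 and 6.22 in cultured libraries. Its change was 0.37 (SE 0.20, limma adjusted p = 0.16). In GENCODE M21, genes on the opposite strand overlap Anxa1 (1500015L24Rik), Anxa2 (Gm16144), Anxa4 (Gm44036), Anxa8 (A630023A22Rik) and Anxa11 (Anxa11os). Strand use in the counting is not given in the sources used here, so reads of each pair cannot be told apart.

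Without cultured library 3, 7 of 9 annexins were called higher, and so were 33.2% of all genes. Anxa1 then had a change of 0.93 (adjusted p = 0.0112), Anxa2 one of 0.60 (adjusted p = 0.011) and Anxa11 one of 0.57 (adjusted p = 0.00834), by the same limma test. Without cultured library 2 the change of Anxa1 was 0.31 (adjusted p = 0.283), and without cultured library 1 that of Anxa2 was 0.16 (adjusted p = 0.621). With library weights, which gave cultured library 3 the lowest weight of 0.18, 8 of 9 annexins and 34.1% of all genes were called higher, and 1 of 9 annexins and 24.8% of all genes lower. Cultured library 3 was the highest of its group for 7 of 9 annexins, and for 40.5% of all genes. The standard deviation was larger between cultured than between tumour libraries for 8 of 9 annexins and for 81.1% of all genes. Anxa6 was the exception, at 0.13 between tumour and 0.07 between cultured libraries. Each annexin had between 321 and 45537 reads in a library, so counting error was small beside these spreads.

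Anxa9, an annexin of the table outside the 9 members, stood at 2.62, 2.45 and 2.88 log2 CPM in tumour libraries, and at 2.88, 3.92 and 2.59 in cultured libraries. It did not pass (change -0.48, limma adjusted p = 0.313).

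To compare the members with each other, levels were set per kilobase of the exons of each gene in GENCODE M21. Anxa5, Anxa2 and Anxa1 stood at 451 ± 7.93, 288 ± 10.9 and 284 ± 12.3 CPM per kb in tumour libraries and at 263 ± 38.0, 234 ± 76.3 and 193 ± 79.5 in cultured libraries (SD, n = 3 each). In the tumour libraries Anxa2 and Anxa1 overlapped, while Anxa5 was above both. In the cultured libraries all neighbours in this upper group overlapped, Anxa3 included. The middle of the order held Anxa6 at 89.0 ± 8.23 in tumour and 38.3 ± 1.89 in cultured libraries, and Anxa3 at 84.2 ± 8.67 in tumour and 144 ± 16.3 in cultured libraries. These neighbours overlapped in tumour libraries, and in cultured libraries Anxa3 was above Anxa6 without overlap. The lower group was Anxa4 at 44.4 ± 1.67 and 26.2 ± 5.36, Anxa8 at 38.2 ± 7.62 and 12.8 ± 7.69, Anxa7 at 26.7 ± 1.11 and 23.2 ± 8.20, and Anxa11 at 17.7 ± 1.48 and 13.9 ± 3.56 CPM per kb, in tumour and in cultured libraries (SD, n = 3 each). The order at the top depends on the length used. With the longest transcript, the tumour levels were 493 ± 21.4 for Anxa1, 472 ± 17.8 for Anxa2 and 463 ± 8.14 for Anxa5.

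As shares of the summed per-length annexin level, Anxa3 made up 6.37%, 6.90% and 5.80% in tumour libraries and 14.6%, 18.5% and 13.3% in cultured libraries. The difference of -9.12 percentage points was the largest of the 9 in size. Anxa5 made up 34.1 ± 0.34% in tumour and 28.1 ± 3.71% in cultured libraries, and Anxa6 made up 6.72 ± 0.48% in tumour and 4.15 ± 0.84% in cultured libraries (SD, n = 3 each). These shares, and those of Anxa4 and Anxa8, did not overlap between the groups. The exact two-sided permutation test gave p = 0.1 for each of the 5, the smallest that 3 libraries against 3 allow, and 0.18 adjusted over the 9 annexins. Together the 9 genes held 0.343%, 0.38% and 0.353% of the reads of tumour libraries, against 0.271%, 0.277% and 0.358% of those of cultured libraries. Cultured library 3 lay within the tumour range, and the exact permutation p was 0.3.

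**Figure D3:**
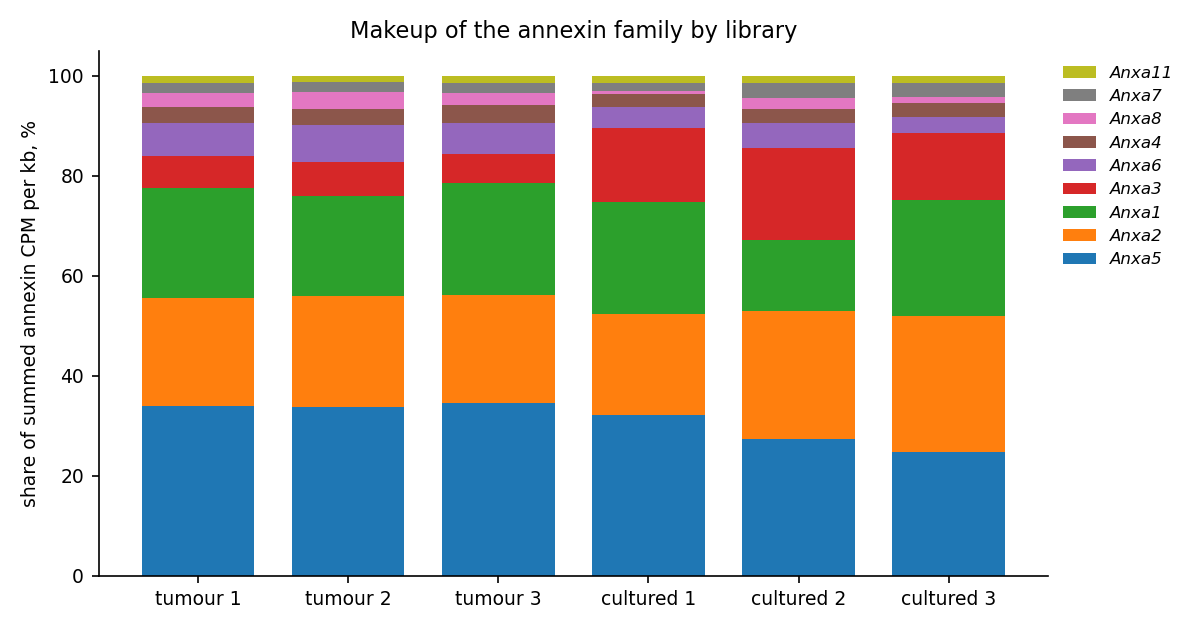
Share of each annexin in the summed annexin level, in percent of CPM per kb of exon, for the 3 tumour libraries on the left and the 3 cultured libraries on the right. Anxa5, Anxa2 and Anxa1 fill most of every bar, and the Anxa3 segment is 5.80% to 6.90% in tumour and 13.3% to 18.5% in cultured libraries.

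Upstream sequence from RefSeq on GRCm38.p6 was at hand for 7 of the 9 members, and Anxa3 and Anxa6 had no entry. It is shown for Anxa4, Anxa5 and Anxa8, the members with an entry that were higher together in the tumour libraries, as the 250 bases before the RefSeq start, with CG dinucleotides in capitals. The windows are chr6:86793585-86793834 (minus strand), chr3:36475888-36476137 (minus strand) and chr14:34085729-34085978 (plus strand).
Anxa4: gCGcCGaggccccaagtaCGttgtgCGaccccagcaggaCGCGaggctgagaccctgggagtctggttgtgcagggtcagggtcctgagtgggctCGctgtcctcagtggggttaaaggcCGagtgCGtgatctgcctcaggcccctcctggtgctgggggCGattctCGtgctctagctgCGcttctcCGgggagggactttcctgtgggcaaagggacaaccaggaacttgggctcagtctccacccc
Anxa5: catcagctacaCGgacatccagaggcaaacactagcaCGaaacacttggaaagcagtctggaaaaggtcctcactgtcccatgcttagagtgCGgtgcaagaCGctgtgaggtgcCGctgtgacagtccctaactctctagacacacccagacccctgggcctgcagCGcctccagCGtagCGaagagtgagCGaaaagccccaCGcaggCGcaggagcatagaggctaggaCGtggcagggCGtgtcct
Anxa8: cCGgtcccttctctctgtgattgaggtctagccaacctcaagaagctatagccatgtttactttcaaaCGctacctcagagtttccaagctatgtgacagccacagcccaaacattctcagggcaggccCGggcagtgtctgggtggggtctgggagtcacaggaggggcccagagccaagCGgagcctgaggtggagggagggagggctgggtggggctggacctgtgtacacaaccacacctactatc
In the windows shown, Anxa4 and Anxa5 held 13 CG dinucleotides each and Anxa8 held 4, where the median of all 32851 entries was 6. Another RefSeq entry of Anxa4, at chr6:86775115-86775364 (minus strand) and not shown, held 2. Both strands were searched for 4 motifs. The GC box, with the letters GGGCGG, occurs in 32.7% of all entries. The TATA box was read as TATAAA and occurs in 12.4%. The AP-1 site was read as TGANTCA and occurs in 6.75%. The CCAAT box occurs in 33.9%. None of these was in the windows of Anxa4, Anxa5 and Anxa8. The same window of Anxa2 held 3 GC boxes, 1 TATA box and 1 AP-1 site, and that of Anxa1 held 1 TATA box. A match is a description of the letters, and its absence says nothing of a factor.

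The genes that work with annexins were taken from 8 lists, 60 genes in all, of which 51 were tested. Of these 51, the tumour libraries were higher for 27 and lower for 4, beside 29.5% and 18.8% of all genes, and the median change was 0.82. Of the 27, 7 had fewer cultured reads than the table's minimum of 61, so they are in it only through their tumour reads and nothing is read from their direction. They are Fpr1, Fpr2, Serpinb2, Dysf, Trim72, Gas6 and Timd4. Without cultured library 3 the counts were 33 and 6, beside 33.2% and 23.7% of all genes.

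Of 7 S100 and EF-hand partners tested, only Sri passed, the calcium-binding protein sorcin that binds annexin A7, at 6.65, 6.56 and 6.55 log2 CPM in tumour libraries and 6.09, 6.09 and 6.15 in cultured libraries (change 0.48, limma adjusted p = 0.0162). The call was lost with centring on the median (adjusted p = 0.142), where libraries were scaled to the epithelial median (change -0.28), and without tumour library 1 (adjusted p = 0.0908) or 3 (adjusted p = 0.0686). Cultured library 3 was the highest of its group for all 7 partners. S100a10, whose protein pairs with annexin A2, stood at 8.75, 8.98 and 8.82 log2 CPM in tumour libraries, and at 8.44, 7.97 and 9.76 in cultured libraries. S100a11, whose protein binds the annexin A1 tail, stood at 7.53, 7.41 and 7.50 log2 CPM in tumour libraries, and at 5.95, 5.89 and 8.14 in cultured libraries. For both genes the tumour libraries lay between cultured library 3 and the other cultured libraries, as they also did for S100a6 and S100a4. The changes of the 4 genes were 0.12, 0.82, 0.32 and 0.12 (limma adjusted p = 0.827, 0.255, 0.51 and 0.892). Without cultured library 3 all 4 passed, with changes of 0.64, 1.56, 0.74 and 0.95 (adjusted p = 0.0179, 4.04e-05, 0.0129 and 0.000795). Per length, S100a11 over Anxa1 was 1.26, 1.23 and 1.20 in tumour libraries and 0.628, 1.01 and 2.01 in cultured libraries. S100a10 over Anxa2 was 1.27, 1.39 and 1.31 in tumour libraries and 1.64, 0.992 and 2.24 in cultured libraries. Over 3 such ratios computed, the exact permutation p was 0.7 for each of these, and 0.7 after adjustment. The ratios were thus close among tumour libraries and wide among cultured ones.

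**Figure D4:**
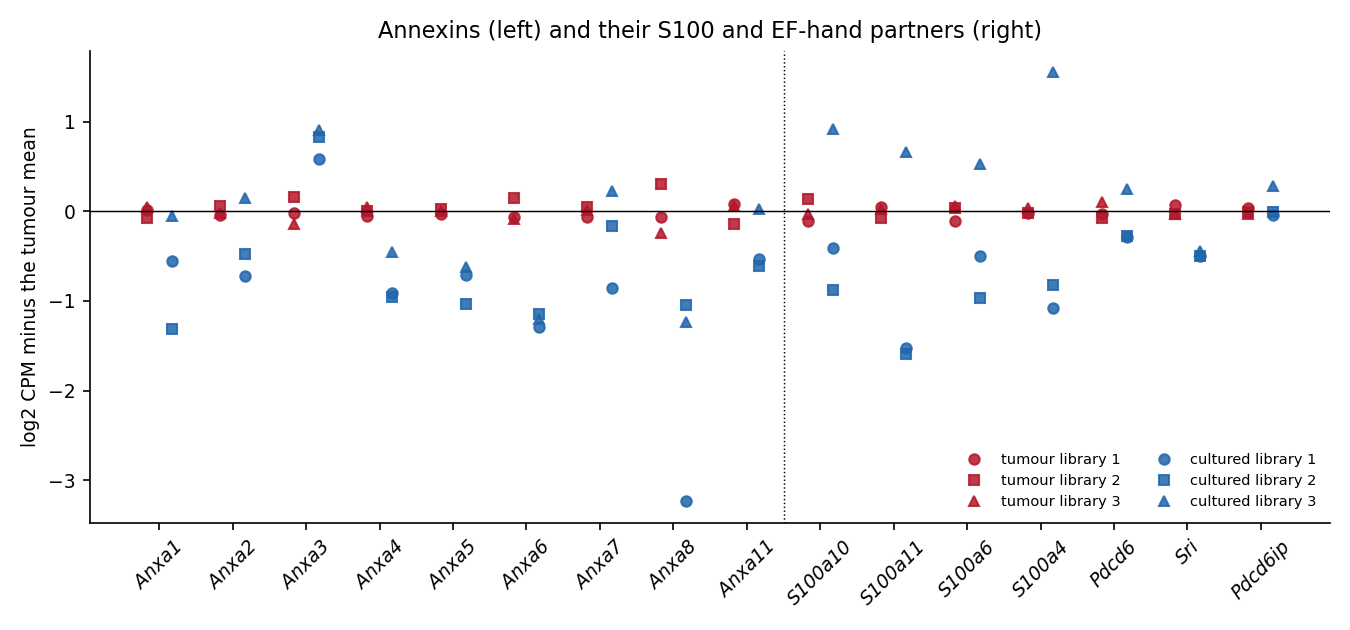
Log2 CPM of each library minus the tumour mean of the gene, for the 9 annexins on the left and 7 S100 and EF-hand partners on the right of the dotted line, tumour libraries in red and cultured libraries in blue. Cultured library 3 (blue triangles) is the highest cultured point for 7 of the 9 annexins and for all 7 partners.

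Both receptors of annexin A1 in the table had hardly any cultured reads. Fpr2, a formyl peptide receptor of myeloid cells, stood at 6.15, 3.62 and 5.20 log2 CPM in tumour libraries, with 1 read over the 3 cultured libraries. Fpr1 stood at 5.26, 2.17 and 4.50 log2 CPM in tumour libraries, with 6 cultured reads. Both are in the table only through their tumour reads, so nothing is read from their direction. Both were lowest in tumour library 2, where the median difference was -2.39 for the receptors and -2.31 for neutrophil markers. In that library Anxa1 differed by -0.11 from the mean of the other tumour libraries. The part of neutrophils or other cells in these differences was not tested.

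Genes of the plasminogen system, which annexin A2 serves at the cell surface, rose in 7 of 7 cases tested, beside 29.5% of all genes. Of the 7, Serpinb2 is in the table only through its tumour reads, so nothing is read from its direction. Serpinb2 and Serpine2 encode inhibitors of plasminogen activators. Serpinb2 had 450, 150 and 566 reads in tumour libraries, and 1, 4 and 44 in cultured libraries. Serpine2 had a change of 3.46 (SE 0.38). Plat, the tissue plasminogen activator, had a change of 3.42 (SE 0.46). Plau, the urokinase activator, stood at 9.54, 9.15 and 9.73 log2 CPM in tumour libraries, and at 6.47, 5.86 and 6.88 in cultured libraries. Per length, Plau over Anxa2 was 1.12, 0.799 and 1.26 in tumour libraries and 0.214, 0.118 and 0.155 in cultured libraries, without overlap (exact permutation p = 0.1, 0.3 adjusted over the 3 ratios). Fibroblast and macrophage markers were higher too, with the limit given above that most have hardly any cultured reads, and their part was not tested.

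Of 10 genes that act with annexins at membrane wounds, 4 were called higher, beside 29.5% of all genes, and the median change was 0.41. Of the 4, Dysf and Trim72 are in the table only through their tumour reads, so nothing is read from their direction. Dysf, which encodes the vesicle fusion protein dysferlin, had 236, 191 and 216 reads in tumour libraries and 0 in cultured libraries. Trim72, a repair protein of muscle, had 44, 13 and 27 reads in tumour libraries and 3 cultured reads. The change of Trim72 was -0.23 after quantile normalization (limma adjusted p = 0.791). The change was 0.87 (SE 0.15, limma adjusted p = 0.00219) for Capn1, a calcium-activated protease, and 0.11 when scaled to the epithelial median (adjusted p = 0.607). Chmp4b, a subunit of the membrane scission machinery, showed 0.49 (SE 0.15, limma adjusted p = 0.0295). The Chmp4b call was lost without tumour library 1 (adjusted p = 0.126), tumour library 3 (adjusted p = 0.118) or cultured library 1 (adjusted p = 0.0623), and without a variance trend (adjusted p = 0.058). It was also lost with centring on the median (0.26, adjusted p = 0.171) and scaling to the epithelial median (-0.27). The abundant Ahnak and Myof did not pass, with changes of 0.19 and -0.27.

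Of 8 ligands and receptors of phosphatidylserine, the lipid that annexin A5 covers, 5 were called higher and 1 lower, beside 29.5% and 18.8% of all genes. Of the 5, Gas6 and Timd4 are in the table only through their tumour reads, so nothing is read from their direction. Of 2 scramblases, which expose that lipid, Xkr8 was called higher and Ano6 did not pass. Axl, a receptor that clears dying cells, was the 1 that fell, by 0.68 on the log2 scale (SE 0.24, limma adjusted p = 0.0464). This is close to the threshold of 0.05, and whether the call held in the other settings is not reported here. Gas6, the bridging ligand of Axl and Mertk, stood at 5.55, 5.97 and 6.93 log2 CPM in tumour libraries with 2 cultured reads. Timd4, a phosphatidylserine receptor of resident macrophages, had 161, 79 and 108 reads in tumour libraries and 0 cultured reads. Mertk and Pros1, a receptor and a ligand of the same system, had changes of 6.36 (SE 0.49) and 4.83 (SE 0.24). The macrophage markers were higher too, but most of them are in the table only through their tumour reads. Their part was not tested.

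Of 4 phospholipase A2 genes tested, 2 rose and 2 fell, beside 29.5% and 18.8% of all genes. Pla2g4a, the cytosolic enzyme of arachidonate release that annexin A1 is known to restrain, stood at 6.48, 6.42 and 6.26 log2 CPM in tumour libraries, and at 7.17, 7.11 and 7.06 in cultured libraries. Its change was -0.73 (SE 0.13, limma adjusted p = 0.00282), and -0.29 when scaled to the epithelial deviations (adjusted p = 0.188). For Pla2g6, a calcium-independent enzyme, it was -0.57 (SE 0.17, limma adjusted p = 0.0247), a call lost without any 1 of the tumour libraries (adjusted p = 0.0747 to 0.0886) without cultured library 2 (adjusted p = 0.0564) or with scaling to the epithelial deviations (adjusted p = 0.67). Pla2g7, a plasma enzyme made by macrophages, and Pla2g15, the lysosomal enzyme, had changes of 6.56 (SE 0.47) and 2.20 (SE 0.20).

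Glucocorticoid-induced genes, a class to which Anxa1 belongs, rose in 4 of 6 cases, beside 29.5% of all genes. Dusp1, a phosphatase, Sgk1, a kinase, Per1, a clock gene, and Tsc22d3, which encodes the leucine zipper protein GILZ, were the 4. Dusp1 averaged 786 ± 173 CPM in tumour and 25.0 ± 7.59 CPM in cultured libraries (SD, n = 3 each). The log2 changes of the other genes were 2.70 for Sgk1, 1.92 for Per1 and 1.58 for Tsc22d3. The Tsc22d3 call was lost without tumour library 1 (adjusted p = 0.114), 2 (adjusted p = 0.0818) or 3 (adjusted p = 0.115), with centring on the median (adjusted p = 0.0616), without a variance trend (adjusted p = 0.0699) and with scaling to the epithelial median (adjusted p = 0.242). Without cultured library 3 its change was 0.87. Per1 lost its call with scaling to the epithelial median (adjusted p = 0.0761). Of the other targets, Klf9, a transcription factor, had a change of -0.78 (limma adjusted p = 0.077), and Fkbp5, a chaperone of the receptor, one of 0.20 (limma adjusted p = 0.504). Nr3c1, the receptor itself, did not pass (change -0.57, limma adjusted p = 0.0914). In cultured library 3, where Anxa1 was the highest of its group, Tsc22d3 was lowest, at 3.05 log2 CPM against 5.08 and 5.24. Per1 and Klf9 were also lowest there. Sgk1 was highest there, at 8.09 against 7.21 and 5.95, and so was Dusp1, at 4.98 against 4.74 and 4.06. Fkbp5 lay between the other cultured libraries. Whether these differences bear on Anxa1 was not tested. Among 4 proteins that bind annexin A6, Rasa1, a Ras regulator, rose with a change of 0.88 (SE 0.13, limma adjusted p = 0.000886), and 0.12 when scaled to the epithelial median (adjusted p = 0.573).

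Among the members, the profiles most alike over the 6 libraries were those of Anxa4 and Anxa5. The measure was the root mean square difference of log2 values centred on the mean of the gene, here 0.12. Anxa3 and Anxa8 were the least alike, at 1.44. By the same measure over 10960 genes with a mean of at least 1 log2 CPM, the 3 genes nearest to Anxa6 were Bmp1, Use1 and Scara3 (0.09 to 0.10). The nearest to Anxa5 were Ncstn, Flad1 and Zfp653 (0.05 to 0.06), and those to Anxa4 were Smpd2, Ap4m1 and Cope (0.04 to 0.05). Anxa1 had Spns1, Galnt4 and Brd9 (0.06 to 0.09), Anxa2 had Adi1, Cenpb and Rab26os (0.03 to 0.05), and Anxa11 had Actr2, Unc45a and Morf4l1 (0.04 to 0.05). Anxa7 had 4833439L19Rik, Lypd3 and Capg (0.06 to 0.08). Anxa3 had a gene whose symbol the deposited table gives as a calendar date, then Mrpl49 and Tfam (0.03 to 0.05). Anxa8 had no close profile, with Smad6, Kcnk6 and Frat2 at 0.33 and no gene within 0.2, where Anxa3 had 798.

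**Figure D5:**
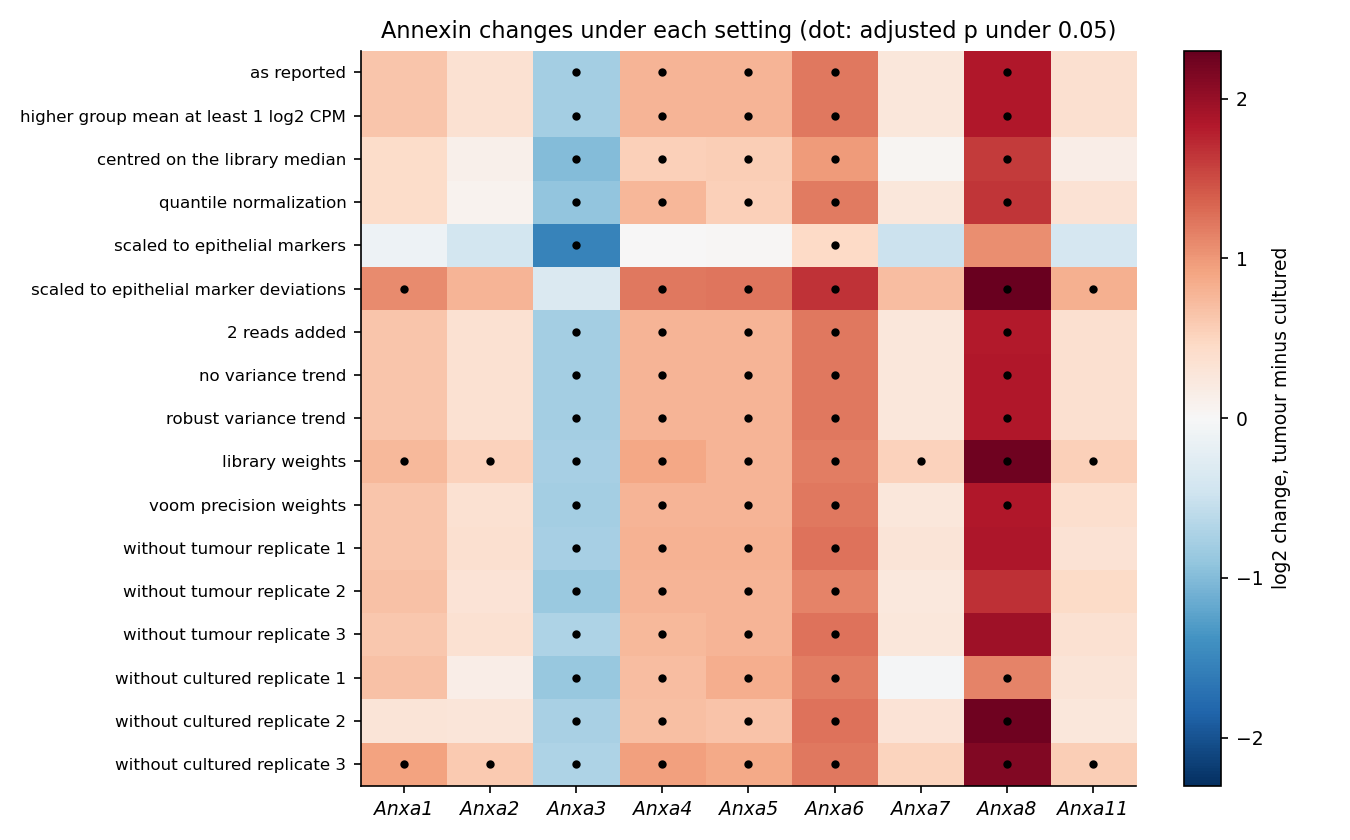
Log2 change of each annexin, tumour mean minus cultured mean, as a colour scale for the fit as reported in the first line and for the 16 other settings in the lines under it, with a dot where the adjusted p was under 0.05. Anxa6 has a dot in every line and Anxa3 in every line but the epithelial deviations, and Anxa1, Anxa2 and Anxa11 have dots without cultured library 3.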

How the data were processed

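Per the labels' protocols, TruSeq RNA libraries were prepared from column-purified RNA. The submitters' processing notes name HISAT, HTSeq, limma and the build mm10, without versions or roles. The authors deposited log2 CPM, named as voom values with TMM scaling in the deposit. Solving the voom formula, with 0.5 reads added, for reads gave whole numbers within 0.01 in 100% of values, and totals of 35448588 to 41469090 reads per library. Genes under 61 reads over the 6 libraries are not in the table. Libraries are numbered 1 to 3 within a group in the order of deposit.

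Deposited log2 values entered a fit by limma 3.58.1 (R 4.3.3), with a variance trend and two-sided tests, adjusted over all genes. Changes are tumour minus cultured means, with limma's moderated SE. The fit was run on simulated reads with the same dispersion in both groups and few changed genes. The real cultured spread was larger for 81.1% of genes, so that run does not test the fit under the conditions of these data. Permutation tests used SciPy 1.17.1. CPM values with SD were computed from the recovered reads and scaled totals. Exon lengths and coordinates came from GENCODE M21 (GRCm38, the assembly of mm10) by symbol, with all 9 members matched, and promoters from RefSeq. Count models were not run, since the deposited unit is log2. Linked genes were named by a rule, up to 4 called members per list with the largest change, and S100a10, S100a11, S100a6, S100a4, Plau, Axl, Ahnak, Myof, Nr3c1, Klf9, Fkbp5, Xkr8 and Ano6 were added after their values were seen. Some genes that the rule names are not reported here. Members, lists and rule were chosen with earlier results of these data known. The alternatives were other scalings, filters, added reads, variance models, weights and leaving out each library.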

Additional observations from a re-analysis of the deposited data

How the results depend on the processing

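No paired analysis was possible because the numbers in the labels are not shared between the groups. Of the 9 annexins, Anxa6 kept its call under all 16 alternatives, with changes from 0.45 (scaled to the epithelial median, limma adjusted p = 0.0415) to 1.66. Leaving out 1 library at a time gave 3 to 7 annexins higher, 1520 to 3301 of all genes lower and 1 to 6 annexin-linked genes lower. Linked genes lower numbered 8 with centring on the median and 7 with quantile normalization, where 5513 of all genes were lower, and 7 with library weights, where 8 annexins were higher. Scaled to the epithelial median, 2713 of all genes were higher and 6781 lower, with 1 annexin higher and 18 linked genes lower. There the changes reversed to -0.12 for Anxa1, -0.41 for Anxa2, -0.50 for Anxa7, -0.39 for Anxa11, -0.28 for Sri, -0.27 for Chmp4b, -0.64 for S100a10, -0.44 for S100a6 and -0.64 for S100a4. Scaled to the epithelial deviations, 886 of all genes were lower, and limma called 0 annexins and 0 linked genes lower (0 and 0 at an unadjusted p under 0.05). Other reversals were all of changes that had not passed, except Trim72 at -0.23 after quantile normalization. Centring on the median gave -0.10 for S100a10 and -0.11 for S100a4, and quantile normalization gave -0.014 for S100a10. Leaving out 1 library gave -0.030 to 0.51 for Anxa7, -0.26 to 0.64 for S100a10, -0.011 to 0.74 for S100a6 and -0.37 to 0.95 for S100a4, each lowest without cultured library 1 or 2 and highest without cultured library 3. The difference in the share of Anxa1 was -1.31 to 3.19 percentage points, with the same libraries left out, beside 1.56 with all. For each of these the cause was not tested. The lowest count of an annexin in a library was 321 reads.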
